A study of Mus musculus with 20 samples.

Results

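The 10 genes described here, Nkd1, Notum, Apcdd1, Wif1, Sp5, Tcf7, Lef1, Sox9, Prox1 and Cd44, are Wnt target genes that lie outside the usual list of crypt stem cell markers. They are 10 of the 25043 named genes of the array, were listed by name with no threshold on a value, though with earlier results of these data known, and all 21 probes whose gene name in the scanner output equals a member were taken. Expression was measured in pieces of intestine of C57BL6/j mice on 20 Agilent 1-colour arrays, 1 array per mouse. Cre control mice (6 arrays) carried VillinCreER, a Cre recombinase that tamoxifen activates in the gut epithelium, and BRAFV600E mice (6 arrays) carried VillinCreER with 1 recombinable copy of the mutant Braf allele. Both groups were 8 to 12 weeks old, received 3 daily doses of 2 mg tamoxifen and were sampled 3 days after the last dose, so Cre activity and tamoxifen were common to both. MEKi mice (4 arrays) received the MEK inhibitor PD184352 and Vehicle mice (4 arrays) its carrier, in 3 daily doses after 2 tamoxifen injections of 1 mg. The genotype of these 8 mice is given only by the legends of the study, as VillinCreER with the mutant allele in both groups, so no MEKi mice without the mutant allele were measured here. The first comparison asks what the mutant kinase does to the tissue soon after its induction, and the second asks what inhibiting MEK, the kinase that RAF proteins activate, does once the mutant kinase is present.

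In the canonical Wnt pathway, a Wnt ligand bound to its receptors stops the destruction of beta-catenin, which then enters the nucleus and switches on target genes together with the TCF and LEF factors. In the intestine this signal is strongest at the base of the crypts and maintains stem and progenitor cells. Many targets act back on the pathway: Nkd1 binds the Dishevelled relay protein, Notum is a secreted enzyme that removes the lipid from Wnt ligands, Apcdd1 is a membrane inhibitor, and Wif1 is a secreted protein that binds Wnt ligands. Sp5, Tcf7, Lef1, Sox9 and Prox1 are transcription factors, and Cd44 is an adhesion receptor for hyaluronan at the cell surface.

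The promoters of the members are shown first because TCF and LEF factors act through short DNA motifs. From the RefSeq promoter table (build GRCm38.p6), 12 windows for 7 of the 10 members were taken. Each had 300 bases, from 250 before to 50 after a transcript start. No window was taken for Notum, Sox9 or Apcdd1, so their promoters were not searched. Whether the promoter table holds a window for Apcdd1 was not tested. The core motifs searched, on both strands, were CTTTG followed by AA, AT, TT or TA. At least 1 of them was found in 2 of the 12 windows (16.7%), against 5544 of all 32851 windows (16.9%). The Sp5 window (chr2:70474673-70474972, plus strand) held 2 motifs, where 1.94% of all windows held more than 1, 1 of them at bases -222 to -216 on the opposite strand and 1 at bases -104 to -98, counted from the start. The other match lay in 1 of the 4 Lef1 windows (chr3:131156044-131156343), at bases -147 to -141. Of the 7 members with windows, Sp5 had the most matches. Cd44 (chr2:102901616-102901915, minus strand) was the only member called in a comparison below. The windows of Sp5 and Cd44 are printed 5′ to 3′ with the motifs in capitals.
Sp5: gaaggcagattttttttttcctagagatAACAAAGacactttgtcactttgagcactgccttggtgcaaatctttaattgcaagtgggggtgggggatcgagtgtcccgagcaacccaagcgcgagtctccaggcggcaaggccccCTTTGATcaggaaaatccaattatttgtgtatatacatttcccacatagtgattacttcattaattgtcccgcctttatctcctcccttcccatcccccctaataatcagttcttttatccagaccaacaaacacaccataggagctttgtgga
Cd44: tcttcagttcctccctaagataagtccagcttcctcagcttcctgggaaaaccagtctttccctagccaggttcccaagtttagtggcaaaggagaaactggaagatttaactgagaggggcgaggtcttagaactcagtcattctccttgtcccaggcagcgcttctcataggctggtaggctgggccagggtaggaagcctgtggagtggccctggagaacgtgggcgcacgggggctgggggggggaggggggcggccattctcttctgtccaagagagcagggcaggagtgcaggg
The Cd44 window held none of the motifs. A match is a description of the sequence and not evidence of binding.

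Every Cre control array shared slide 1 with BRAFV600E replicates 1 and 2, while BRAFV600E replicates 3 to 6 were hybridised on slide 2. On slide 3, MEKi occupied row 1 and Vehicle row 2, so row and drug cannot be told apart. The slope of the spike-in RNA was 0 on slide 2, 0.759 to 0.843 on Cre control replicates 2, 3 and 5, and 1.02 to 1.08 on the other 13 arrays. Y-linked signal was high on all 4 MEKi arrays and on 2 of 4 Vehicle arrays. In the other comparison it was high on Cre control replicates 1, 2 and 3 and on BRAFV600E replicates 1, 2, 3 and 6. The methods of the study give as many males as females for Cre control and for BRAFV600E. Between 60.8% and 76.8% of the spots of an array were well above background, and each of the 7 epithelial and 6 smooth muscle markers was well above background on at least 1 array of every group. Braf itself, whose probe does not tell the mutant from the normal allele, was 0.42 higher in mean log2 level in BRAFV600E than in Cre control, and −0.50 was the difference of MEKi from Vehicle, neither called (limma adjusted p 0.172 and 0.190). Of 7 epithelial markers, 2 were called higher in BRAFV600E (median difference 0.17), as were 2 of 6 smooth muscle markers (median difference 0.50). Over all genes, 12.4% were called in either direction. With slide as a block, 1 marker of each list was called higher and 1 epithelial marker lower.

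In BRAFV600E against Cre control, none of the 9 members tested was called. Over all genes, 2369 of 19040 (12.4%) were called at a limma adjusted p under 0.05, and 1 member, Sox9, against 30.1% of all genes, had an unadjusted p under 0.05. The groups overlapped for all 9 members, whereas they did not overlap for 7.36% of all genes. Of the members, 6 had a lower mean in BRAFV600E (Nkd1, Sp5, Tcf7, Lef1, Sox9 and Prox1) and 3 a higher one (Notum, Cd44 and, by 0.0030, Apcdd1), with a median difference of −0.40 in log2 level against −0.02 over all genes. Without scaling between arrays the median of all genes was 0.79 and all 9 members lay above 0, and after normexp background correction it was −0.13 and Apcdd1 lay below 0. Of all calls, 49.7% were higher in BRAFV600E, against 98.1% without scaling and 34.2% after normexp. Wif1 was too dim to be tested. The 95% intervals reached between 0.41 and 0.83 to either side of the estimate in these 12 arrays. All levels below are log2 processed signals minus the 75th percentile of the array, so 0 is that percentile, and levels are not compared between genes.

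**Figure D1:**
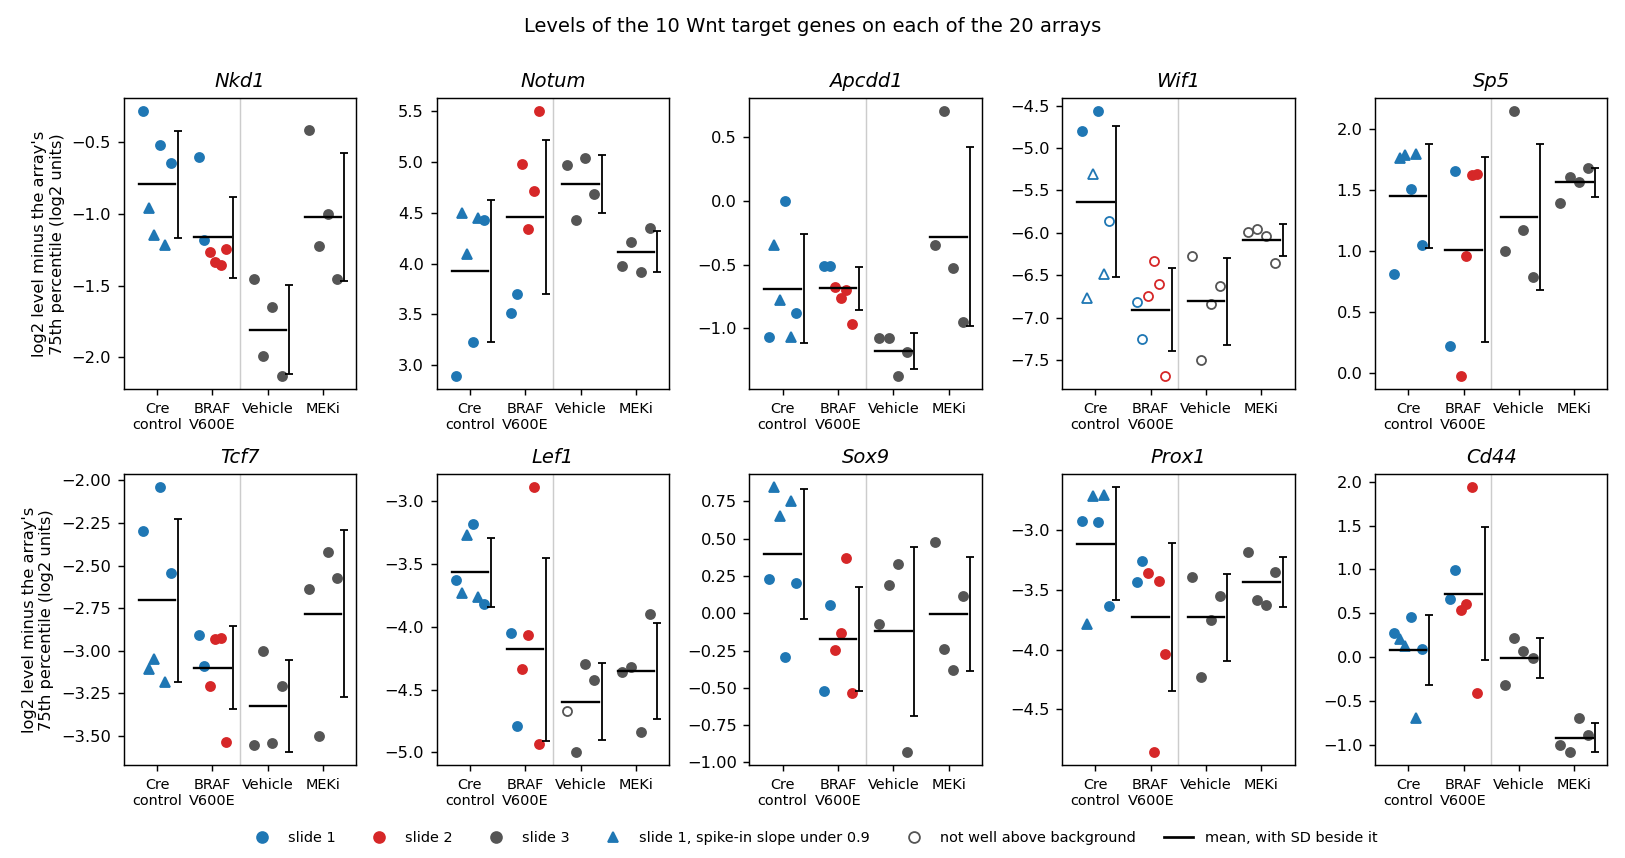
Level of each member on each of the 20 arrays (y axis, log2 units relative to the 75th percentile of the array) by group (x axis), with slide by colour, spike-in slope under 0.9 as triangles, probes not well above background as open symbols, and the mean with its SD in black. The 4 MEKi arrays of Cd44 lie between −1.08 and −0.70, below all 4 Vehicle arrays. Within the 2 comparisons, BRAFV600E overlaps with Cre control for every member tested, and MEKi does not overlap with Vehicle for Cd44, Notum and Apcdd1. Over all genes, the groups do not overlap for 7.36% in BRAFV600E against Cre control and for 12.2% in MEKi against Vehicle.

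Among the feedback inhibitors, Nkd1 (probe at chromosome 8, 91116160 to 91116219, mm9) had a lowest, median and highest level of −1.21, −0.80 and −0.28 in the 6 Cre control arrays and −1.35, −1.25 and −0.60 in the 6 BRAFV600E arrays. The levels of 4 BRAFV600E arrays were under the lowest one of Cre control, and BRAFV600E replicate 1 lay apart from its group at −0.60. The difference was −0.37 (SE 0.19, 95% interval −0.78 to 0.04, limma adjusted p 0.214). Nkd1 also moved with the spike-in slope within the Cre control group: the 3 arrays with a slope over 0.9 lay between −0.64 and −0.28 and the other 3 between −1.21 and −0.96. With slide as a block, which leaves the estimate to BRAFV600E replicates 1 and 2, the difference was −0.10 (limma adjusted p 0.836).

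Notum (chromosome 11, 120515209 to 120515268) ran from 2.89 over a median of 4.26 to 4.50 in Cre control and from 3.52 over 4.53 to 5.49 in BRAFV600E. The 4 BRAFV600E arrays of slide 2 were the high ones, between 4.34 and 5.49, and both on slide 1 were at 3.52 and 3.71, inside the Cre control range. The difference of 0.53 (SE 0.38, interval −0.30 to 1.36, limma adjusted p 0.381) was 0.32 without either Cre control replicate 1 or BRAFV600E replicate 6, and turned to −0.32 (limma adjusted p 0.689) when slide was a block. The second Notum probe (120518888 to 120519237) differed by 0.22 (limma adjusted p 0.556).

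Apcdd1 (chromosome 18, 63113371 to 63113429) had the same mean in both groups, −0.69 in each, with arrays from −1.07 to −0.0011 in Cre control and from −0.97 to −0.51 in BRAFV600E. The interval of its difference was −0.41 to 0.41. Of its other probes, 1 differed by −0.01 and a dim one by 0.57 (limma adjusted p 0.383). Wif1 (chromosome 10, 120537079 to 120537138) was well above background only on Cre control replicates 1 and 4, at −4.80 and −4.57, and on none of the 6 BRAFV600E arrays, where it ran from −7.69 to −6.33. No fold is given for Wif1, because the background bound of the dim arrays exceeded the mean of the brighter group.

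Of the transcription factors, Sp5 (chromosome 2, 70315688 to 70315747), a zinc finger factor of the Sp family, ran from 0.82 over a median of 1.64 to 1.80 in Cre control and from −0.02 over 1.296 to 1.66 in BRAFV600E. BRAFV600E replicates 1 and 3 were the low arrays, at 0.23 and −0.02, and the other 4 lay within the Cre control range. The difference was −0.44 (SE 0.33, interval −1.15 to 0.27, limma adjusted p 0.396), and −0.28 or −0.23 without BRAFV600E replicate 1 or 3.

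Tcf7 and Lef1 encode factors that carry beta-catenin to DNA, and both are also known as genes of T lymphocytes. Tcf7 (chromosome 11, 52066008 to 52066067) had a lowest, median and highest level of −3.18, −2.80 and −2.04 in Cre control and −3.53, −3.01 and −2.90 in BRAFV600E, a difference of −0.40 (SE 0.21, interval −0.86 to 0.07, limma adjusted p 0.234). The 3 highest values were all of Cre control arrays with a spike-in slope over 0.9, and without the highest, replicate 4, the difference was −0.26. A second Tcf7 probe (52066114 to 52066173) showed a difference of −0.65 (SE 0.20, limma adjusted p 0.0589), and the remaining one was not well above background on any of the 12 arrays. Lef1 (chromosome 3, 130926200 to 130926259) ran from −3.82 over −3.68 to −3.18 in Cre control and from −4.93 over −4.20 to −2.89 in BRAFV600E. In BRAFV600E, 5 arrays were lower than the lowest Cre control array, and replicate 5, at −2.89, was higher than the highest. The Lef1 difference of −0.61 (SE 0.30, interval −1.25 to 0.03, limma adjusted p 0.185) became −0.87 (limma adjusted p 0.0239) without that array and, blocked by slide, −0.85 (limma adjusted p 0.228). Its other 2 probes were dim on all arrays. Of 9 T lymphocyte markers, 8 were lower in BRAFV600E and 3 of them were called, with a median difference of −0.79. The 1 higher marker was Cd4 (0.28). The summed level of a marker list is the log2 of its markers' added linear signals, so bright markers weigh most in it. For the 9 T lymphocyte markers it ran from 5.45 to 6.77 in Cre control and from 5.37 to 6.82 in BRAFV600E. None of the 9 was dim on every array. The part of T lymphocytes in the Tcf7 and Lef1 values was not tested, and because whole tissue was measured, fewer cells of a type and less RNA per cell cannot be told apart.

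Sox9 (chromosome 11, 112647560 to 112647619), a factor of crypt progenitor and Paneth cells, ran from −0.30 over a median of 0.44 to 0.84 in Cre control and from −0.54 over −0.19 to 0.37 in BRAFV600E. The high arrays were Cre control replicates 2, 3 and 5, those with the low spike-in slope, between 0.65 and 0.84, and the other 3 lay between −0.30 and 0.23. The difference of −0.57 (SE 0.22, interval −1.04 to −0.09) had the smallest p among the members' brightest probes, 0.024 unadjusted and 0.105 as limma's adjusted p. The second probes of Cd44 and Tcf7 had a smaller unadjusted limma p, 0.0040 and 0.0063. Leaving out Cre control replicate 4, the lowest array of its group, gave −0.705 (limma adjusted p 0.0344). The second Sox9 probe (112646642 to 112646701) differed by −0.08 (limma adjusted p 0.853). Of 5 Paneth cell markers, 4 were called lower, and their summed level ran from 9.70 to 10.55 in Cre control and from 7.88 to 9.62 in BRAFV600E, with no marker dim on every array. The part of Paneth cells in the Sox9 value was not tested.

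Prox1 (chromosome 1, 191946360 to 191946419), a homeobox factor of lymphatic vessels and enteroendocrine cells, ran from −3.79 over −2.92 to −2.70 in Cre control and from −4.86 over −3.43 to −3.25 in BRAFV600E. BRAFV600E replicates 4 and 6 were the low arrays, at −4.86 and −4.04, and the other 4 lay inside the Cre control range. The difference was −0.62 (SE 0.30, interval −1.26 to 0.03, limma adjusted p 0.183), or, blocked by slide, −0.23 (limma adjusted p 0.754), and −0.29 (limma adjusted p 0.514) for the second probe. Without BRAFV600E replicate 4 it was −0.39. None of the 4 lymphatic endothelial markers tested was called, and the summed level of the 5 on the array overlapped (1.60 to 2.68 and 1.77 to 2.76), whereas 2 of 6 enteroendocrine markers were called lower (summed level 4.91 to 5.30 in Cre control, 4.18 to 4.92 in BRAFV600E). The part of either cell type in the Prox1 value was not tested.

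Cd44 was the member with the highest difference, and 1 of its probes was called. On its brightest probe (chromosome 2, 102652758 to 102652817) the lowest, median and highest levels were −0.69, 0.17 and 0.45 in Cre control and −0.41, 0.63 and 1.94 in BRAFV600E. In BRAFV600E, 5 arrays exceeded the highest Cre control level, and replicate 6, at −0.41, was lower than 5 of the Cre control arrays. The difference was 0.64 (SE 0.32, interval −0.05 to 1.34, limma adjusted p 0.200), and 0.40 without BRAFV600E replicate 5, the highest array at 1.94. On the second probe (102654278 to 102654337) the groups did not overlap, with Cre control from −1.25 over −0.93 to −0.44 and BRAFV600E from −0.42 over −0.29 to −0.10, and the difference was 0.60 (SE 0.17, limma adjusted p 0.0460 over all probes). That was the only call among the 16 member probes tested, against 3591 of all 38501 probes (9.33%). With slide as a block the second probe differed by 0.67 (limma adjusted p 0.133). Leaving out 1 array at a time gave 0.53 to 0.69, with 3 of the 12 fits called, those without Cre control replicate 2, 3 or 4. The call was also lost when the Y-linked signal entered the fit, without a filter on dim probes and within slide 1. The remaining probe (102677971 to 102678030) was well above background on only 1 Cre control and 2 BRAFV600E arrays and was not tested. Of 5 myeloid markers, 2 were called lower in BRAFV600E, Lyz2 (−1.755) and Csf1r (−0.69, limma adjusted p 0.0062 and 0.013). Adgre1, Itgam and Cd68 differed by −0.65, −0.54 and −0.30 and were not called. Lyz2 is a lysozyme gene, as is the Paneth cell marker Lyz1 (−2.005), and the part of Paneth cells in the Lyz2 value was not tested. The summed myeloid level, in which bright markers weigh most, ran from 7.89 to 8.57 in Cre control. In BRAFV600E it ran from 6.40 to 7.79, the opposite direction to Cd44. The part of myeloid cells in the Cd44 value was not tested.

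**Figure D2:**
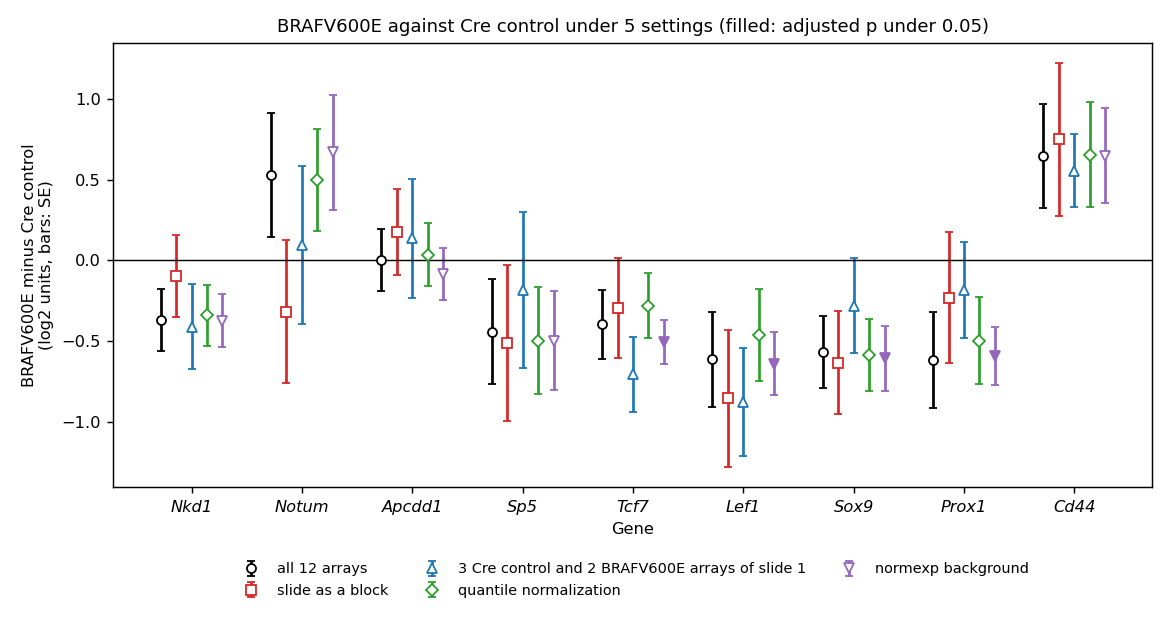
Difference between BRAFV600E and Cre control (y axis, log2 units, bars SE) for the 9 members tested (x axis) under 5 settings, by colour and shape, filled where the adjusted p was under 0.05. Notum changes sign with slide as a block (0.53 to −0.32), Cd44 lies between 0.55 and 0.75 under all 5, and the 4 filled points are Tcf7, Lef1, Sox9 and Prox1 after normexp background correction. Over all genes, 4642 were called under that correction, 3053 of them lower, and the median of all genes was −0.13.

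The members differed between arrays of 1 group along the spike-in slope as well. For 4 of the 9 members tested (Nkd1, Sox9, Sp5 and Tcf7), the 3 Cre control arrays with a slope over 0.9 did not overlap with the other 3, against 28.8% of all genes. In the fit of only the 5 slide 1 arrays with a slope over 0.9, 3 Cre control and 2 BRAFV600E, which was chosen after seeing the data, Cd44 differed by 0.55, Tcf7 by −0.70, Lef1 by −0.88 and Sox9 by −0.28, none with an adjusted p under 0.05 (0.307 to 0.720, limma). The part of the spike-in slope in the member values was not tested in any other way.

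In MEKi against Vehicle, Cd44 was called lower and no other member was called. Over all genes, 380 of 19231 (1.98%) were called. Of the 9 members, 4 (Cd44, Notum, Nkd1 and Apcdd1) had an unadjusted limma p under 0.05, as had 16.4% of all genes, and the groups did not overlap for 3 (Cd44, Notum and Apcdd1), as for 12.2% of all genes. The mean was higher in MEKi for 7 members and lower for 2, Cd44 and Notum, with a median difference of 0.29 against 0.04 over all genes.

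Cd44 was at −1.003, −1.08, −0.70 and −0.89 in the 4 MEKi arrays and at −0.32, 0.21, 0.07 and −0.01 in the 4 Vehicle arrays, in the order of the replicate numbers. All MEKi arrays were lower than all Vehicle arrays. The difference was −0.91 (SE 0.15, interval −1.26 to −0.56, limma adjusted p 0.0294), a 1.88-fold lower level. The call was kept on leaving out Vehicle replicate 1 (−1.01, limma adjusted p 0.0370) and lost on leaving out any other single array, with differences of −0.98 to −0.83 and limma adjusted p of 0.0503 to 0.104. It was also lost when the Y-linked signal, which differs between these groups, entered the fit (−0.79, limma adjusted p 0.134).

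The second Cd44 probe was at −0.87, −1.92, −0.89 and −0.87 in MEKi and −0.37, −0.05, −0.59 and −0.75 in Vehicle, also without overlap. Its difference was −0.70 (SE 0.28, limma adjusted p 0.327), with MEKi replicate 2 far below the others. The remaining Cd44 probe was well above background on 1 Vehicle array and no MEKi array, and was not tested. The brightest Cd44 probe was the only call among the 16 member probes (limma adjusted p 0.0477 over all probes, against 0.927% of all probes called). That call was lost on leaving out any 1 of the 8 arrays (limma adjusted p 0.0635 to 0.168) and after quantile normalization (limma adjusted p 0.0505). Cd44 is also expressed by leukocytes. Of 5 myeloid markers, 4 were higher in MEKi (median difference 0.17). Their summed level, weighted to bright markers, ran from 8.06 to 8.60 in MEKi and from 7.20 to 7.95 in Vehicle. All 5 Paneth cell markers were also higher in MEKi, none called (median difference 0.80). The part of Paneth cells in the Lyz2 value was not tested here either. Of 9 T lymphocyte markers, 8 were higher in MEKi (median difference 0.78), all but Cd4 (−0.37). Their summed level, in which bright markers weigh most, ran from 5.75 to 6.35 in MEKi and from 5.78 to 6.84 in Vehicle. None of the 14 myeloid and T lymphocyte markers was called or dim on every array. The part of leukocytes in the Cd44 value was not tested.

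**Figure D3:**
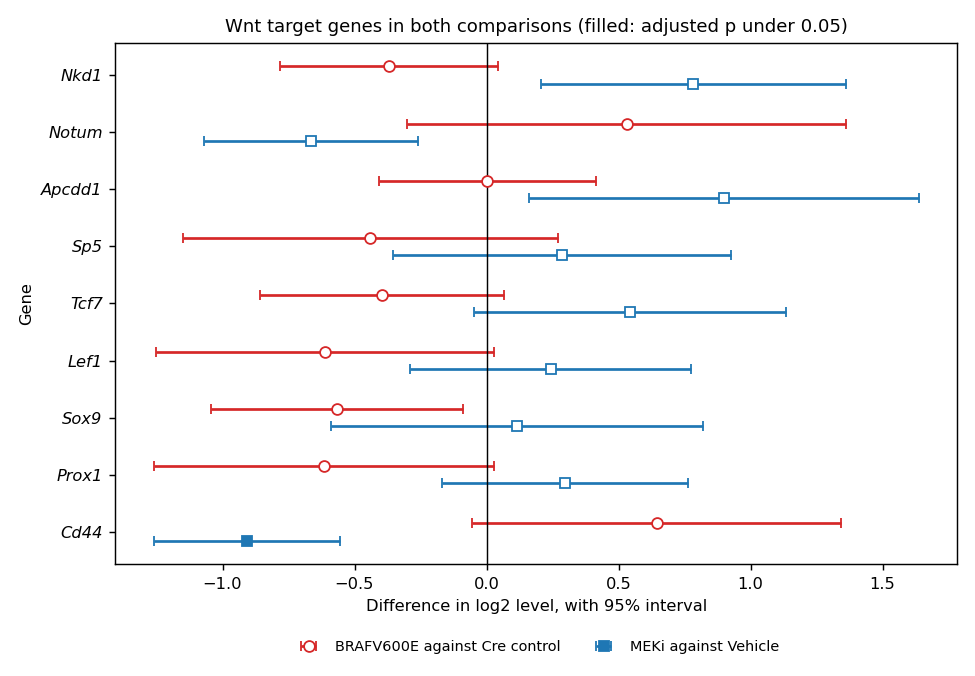
Difference in log2 level (x axis, with 95% interval) of the 9 members tested (y axis) in BRAFV600E against Cre control (red circles) and MEKi against Vehicle (blue squares), filled where the adjusted p was under 0.05. The only filled point is Cd44 in MEKi against Vehicle, at −0.91, and 8 of the 9 members have estimates of opposite sign in the 2 comparisons.

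Notum, the other member lower in MEKi, was at 3.98, 4.21, 3.92 and 4.35 in MEKi and at 4.97, 4.42, 5.04 and 4.69 in Vehicle. The groups did not overlap, with 4.35 the highest in MEKi and 4.42 the lowest in Vehicle. The difference of −0.67 (SE 0.18, interval −1.07 to −0.26) had an unadjusted p of 0.0052 and a limma adjusted p of 0.112, and the second probe differed by −0.17, with overlapping groups.

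Nkd1 was at −0.41, −1.22, −0.9996 and −1.46 in MEKi and −1.45, −1.99, −1.65 and −2.13 in Vehicle. In MEKi, 3 arrays lay above all Vehicle arrays and replicate 4 lay just below the highest of them. The difference was 0.78 (SE 0.25, interval 0.20 to 1.36, limma adjusted p 0.174). Apcdd1 was at −0.35, 0.70, −0.53 and −0.95 in MEKi and −1.08, −1.08, −1.38 and −1.19 in Vehicle, with no overlap and with MEKi replicate 2 far above the rest. Its difference was 0.90 (SE 0.32, interval 0.16 to 1.64, limma adjusted p 0.210), and 0.97 on a second bright probe (limma adjusted p 0.218), where the groups did not overlap either. The remaining Apcdd1 probe differed by −0.03, with overlapping groups. Without MEKi replicate 2 the Apcdd1 difference was 0.57. Wif1 was not well above background on any of the 8 arrays.

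Tcf7 was at −2.63, −3.50, −2.42 and −2.57 in MEKi and at −3.55, −3.00, −3.54 and −3.21 in Vehicle. In MEKi, 3 arrays were higher than every Vehicle array and replicate 2 was among the lowest of all 8. The Tcf7 difference was 0.54 (SE 0.26, interval −0.05 to 1.13, limma adjusted p 0.346), and 0.49 on its second probe. The remaining Tcf7 probe was well above background on 1 Vehicle array and no MEKi array, and was not tested. Its levels ran from −7.96 to −6.68 in MEKi and from −6.64 to −4.39 in Vehicle, the opposite direction. Lef1 differed by 0.24 (SE 0.23, interval −0.29 to 0.77), and was well above background on 3 of the 4 Vehicle arrays. Leaving out 1 array moved the Lef1 difference to between 0.09 (without MEKi replicate 4) and 0.40 (without MEKi replicate 3), with 0.11 without Vehicle replicate 2. Of 9 T lymphocyte markers, 8 had a higher mean in MEKi, none of them called, with a median difference of 0.78 and the summed levels given beside Cd44, and their part in the Tcf7 and Lef1 values was not tested.

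The other 3 factors had overlapping groups and intervals that spanned 0. Sp5 was at 1.40, 1.61, 1.57 and 1.68 in MEKi, a narrow range inside that of Vehicle (1.00, 2.15, 1.18 and 0.79), with a difference of 0.29 (interval −0.35 to 0.93), which was 0.57 without Vehicle replicate 2 and 0.12 without Vehicle replicate 4. Sox9 was at 0.48, −0.24, −0.38 and 0.11 in MEKi and at −0.07, 0.19, 0.33 and −0.93 in Vehicle, with a difference of 0.12 (interval −0.59 to 0.82) and −0.17 on the second probe. Leaving out 1 array moved the Sox9 value to between −0.15 (without Vehicle replicate 4) and 0.27 (without Vehicle replicate 3). Prox1 was at −3.18, −3.58, −3.62 and −3.35 in MEKi and at −3.39, −4.23, −3.75 and −3.55 in Vehicle. Its difference was 0.30 (interval −0.17 to 0.76), or 0.13 without Vehicle replicate 2, and 0.41 on the second probe (limma adjusted p 0.575).

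**Figure D4:**
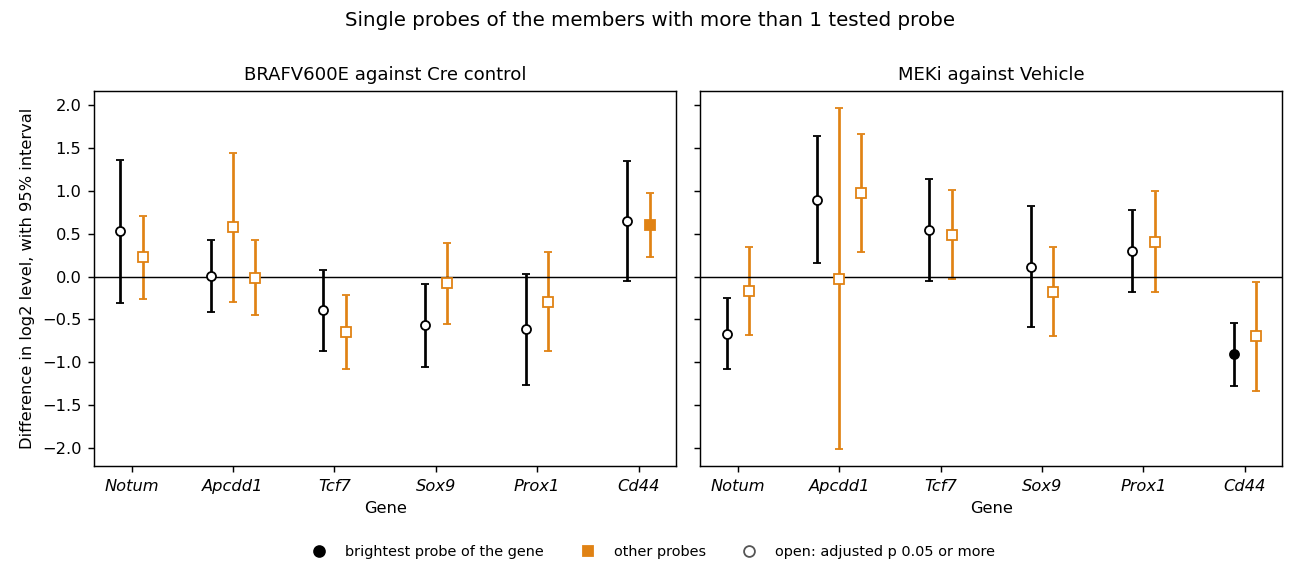
Difference in log2 level (y axis, with 95% interval) of every tested probe of the 6 members with more than 1 tested probe (x axis), in BRAFV600E against Cre control (left) and MEKi against Vehicle (right), brightest probe in black, others in orange, filled where the adjusted p was under 0.05. Both Cd44 probes lie above 0 on the left (0.64 and 0.60) and below 0 on the right (−0.91 and −0.70), while the Sox9 probes lie at −0.57 and −0.08 on the left.

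Set side by side, the 2 comparisons share no array. The estimates had opposite signs for 8 of the 9 members (88.9%), Apcdd1 being the exception, as had 13046 of the 18577 genes tested in both (70.2%). For Cd44 these were 0.64 and −0.91, for Notum 0.53 and −0.67, for Nkd1 −0.37 and 0.78, for Tcf7 −0.40 and 0.54 and for Prox1 −0.62 and 0.30. Of these values, each from the brightest probe of a gene, only that of Cd44 in MEKi against Vehicle passed the test. The second Cd44 probe was called in BRAFV600E against Cre control, as given above. The difference between the comparisons was not tested.

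Other genes of the pathway were described from lists chosen by role. Of 22 other Wnt targets, 7 were called lower and 1 higher in BRAFV600E, with a median of −0.41, close to the −0.40 of the members. Ascl2, a stem cell transcription factor, differed by −1.52 (SE 0.11, limma adjusted p 1.57e-05), Bambi, a decoy receptor of the TGF-beta family, by −1.20, Mmp7, a protease of Paneth cells, by −2.10, Tnfrsf19, a stem cell receptor, by −0.90, and Lgr5, the R-spondin receptor of stem cells, by −0.84. The target called higher was Myc, a growth regulator, at 0.94 (limma adjusted p 0.0488), with a second probe at −0.16. Within slide 1 or with slide as a block, 3 of the 22 were called lower and none higher. The second Ascl2 probe, with a difference of 0.23, was not called.

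Of 32 genes that transmit the Wnt signal, 2 were called higher and 1 lower, with a median of −0.10, and after quantile normalization none was called higher and 2 lower. Ctnnb1, which encodes beta-catenin, was 0.82 higher (limma adjusted p 0.0267), although its 2 other probes differed by only 0.27 and 0.09. The co-repressor gene Ctbp2 was 0.74 higher in log2 level and the co-repressor gene Tle3 fell by 0.80 (limma adjusted p 0.0327 and 0.00985). In MEKi against Vehicle, 2 of the 22 other targets were called, both higher: Ascl2 by 0.999 and Tiam1, an exchange factor for Rac, by 0.92 (limma adjusted p 0.0309 and 0.0264). The second Ascl2 probe differed by −0.65, and the other 2 Tiam1 probes by −0.29 and 0.09. Of the 32 transmitting genes, 1 was called, Bcl9l, a beta-catenin co-factor, 0.75 higher (limma adjusted p 0.0489), with its other probes at 0.71 and −0.99. Without scaling between arrays, none of these 3 genes was called. For comparison, 11 of 14 genes of MAPK output, the readout of RAF and MEK, were called higher in BRAFV600E (median 0.80), with 1 lower, and 6 of 14 lower in MEKi (median −1.27).

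**Figure D5:**
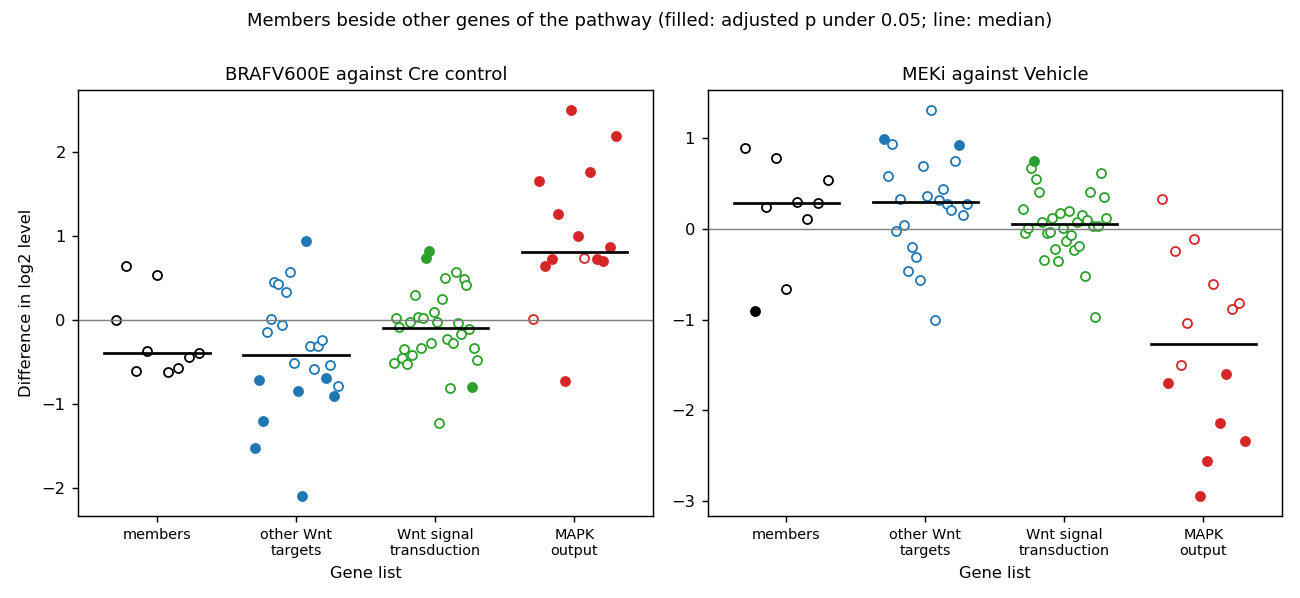
Difference in log2 level (y axis) of each tested gene of the members, 22 other Wnt targets, 32 Wnt signal transduction genes and 14 MAPK output genes (x axis) in both comparisons, filled where the adjusted p was under 0.05, with the list median as a line. The medians of the members are −0.40 and 0.29, near those of the other Wnt targets (−0.41 and 0.30), while MAPK output lies at 0.80 and −1.27.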

How the data were processed

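Scanner images were read by the authors with Feature Extraction 10.5.1.1, per the file headers. The deposited intensity is that program's processed signal, with background subtracted and spatial trends removed, on a linear scale and without scaling between arrays. Also deposited are 0 or 1 marks for each spot (well above background, saturated, outlying), of another kind than an intensity, which served as filters. The deposited value matrix held the same intensity (100% of spots within 0.5%) and was not used further. A treatment text that is the same on all 20 arrays fits none of the groups and was not used. Replicate numbers only name arrays.

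Control spots and outlier spots were left out, log2 intensities were scaled to the 75th percentile of each array, and the spots of a probe were averaged. Probes were named through RefSeq (GRCm38.p6), 34023 of them by accession, 9993 through the symbol, 318 through a synonym and 12271 not at all. The brightest probe stood for a gene. Probe coordinates are those of the files (mm9). Where a probe lies relative to exons was not analysed here. Genes well above background on at least 6 of 12 or 4 of 8 arrays were tested with limma 3.58.1 in R 4.3.3 (lmFit, eBayes, no covariates, as the methods of the study name none), with Benjamini-Hochberg adjustment over all genes, or all probes, and called under 0.05. The fit was also run on simulated data with independent normal noise. Those data held no slide or spike-in slope effect, so that run cannot show how the fit behaves under either. All p-values are two-sided and rest on the spread between arrays, each from a different mouse. In BRAFV600E against Cre control, slide and spike-in slope also vary within and between the groups. Without covariates, the fit cannot separate either from the difference or from the spread between mice. In MEKi against Vehicle, the fit cannot separate slide row from the drug, and Y-linked signal also differs between these groups. Precision is also limited by how many arrays there are. The members and gene lists were chosen with earlier results of these data known. Named outside the members were at most 6 called genes per pathway list and comparison. Alternatives changed the scaling, background correction, filter, probe choice, array weights, Y-linked signal, slide and left-out arrays.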

Additional observations from a re-analysis of the deposited data

Results flagged for a closer look

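Of 40 sets of member levels, 1 for each member and group, 2 held an array that lay apart from the others by Dixon's test, which chance gives in about 1 in 20 groups. Nkd1 was at −0.60 on BRAFV600E replicate 1, and the nearest of the other 5 arrays was at −1.18. Without that array the Nkd1 difference between BRAFV600E and Cre control was −0.48 (limma adjusted p 0.100). Cd44 was at −0.69 on Cre control replicate 5, and the nearest array of the group was at 0.09. Without it the Cd44 difference was 0.49.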

How the results depend on the processing

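No paired analysis was possible because replicate numbers only name arrays, in accession order. In BRAFV600E against Cre control, 2369 genes, 0 members and 1 member probe were called. Genes called numbered 9332 without scaling, 4642 after normexp, 1535 with slide as a block, 746 within slide 1 and 1445 to 2886 on leaving out 1 array, the fewest being 1445 without Cre control replicate 3 and 1516 without replicate 2. In 2 alternatives chosen after seeing the data they numbered 25 (slide 1 arrays with a spike-in slope over 0.9) and 1211 (slide block with the Y-linked signal). Members called numbered 2 without scaling (Notum 1.34, Cd44 1.45), 4 after normexp (Tcf7 −0.50, Lef1 −0.64, Sox9 −0.61, Prox1 −0.59) and 0 to 1 on leaving out 1 array (Sox9 −0.705 without Cre control replicate 4, Lef1 −0.87 without BRAFV600E replicate 5). Member probes called numbered 5 without scaling, 7 after normexp and 2 when a probe had to be well above background on every array of 1 group. They numbered 0 to 2 on leaving out 1 array. They numbered 0 without a filter, with the Y-linked signal, with slide as a block, within slide 1 and in both added alternatives. The share of all probes called under these settings is not given here, so these counts are not read as a result about the members. Genes called also rose without scaling and after normexp, as given above.

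Without scaling the median of all genes moved to 0.79, and relative to that shift the signs stayed, but Nkd1 was at 0.44, Sp5 0.37, Tcf7 0.41, Lef1 0.20, Sox9 0.24 and Prox1 0.19. Notum reversed to −0.32 with slide as a block, −0.32 within slide 1 and −0.40 with the block and the Y-linked signal. Apcdd1 (0.0030) lay at −0.0826 after normexp and between −0.0735 and 0.141 on leaving out 1 array, below 0 without Cre control replicate 1, 3, 5 or 6 or BRAFV600E replicate 1 or 2.

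In MEKi against Vehicle, 380 genes, 1 member and 1 member probe were called. Genes numbered 74 without scaling, 234 without a filter, 1129 with array weights, 59 with the Y-linked signal and 82 to 371 on leaving out 1 array. Members numbered 3 with array weights (with Notum −0.75 and Tcf7 0.80), 0 without scaling, without a filter, with the mean of a gene's probes and with the Y-linked signal, and 0 to 1 on leaving out 1 array. Member probes numbered 2 with array weights and 0 without scaling, after quantile normalization, without a filter, with the Y-linked signal and on leaving out any 1 array. Here too, the share of all probes called under each setting is not given. Cd44 was −0.93 without scaling, −0.91 without a filter, −0.80 as the mean of its probes and −0.79 with the Y-linked signal (limma adjusted p 0.351, 0.0503, 0.0915 and 0.134). Sox9 (0.12) reversed to −0.0298 as the mean of its probes, −0.14 with the Y-linked signal, −0.15 without Vehicle replicate 4 and −0.05 without MEKi replicate 1, and ranged up to 0.27 on leaving out 1 array. Beyond constructions that drop arrays or genes, the causes were not tested.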
